A study of Mus musculus with 2 samples.

Results

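The proteasome genes of the neonatal mouse brain were described from counts of ribosome-protected fragments (footprints) on 48 genes of 45578 in the deposited table. A gene was kept when its symbol was Psma, Psmb, Psmc, Psmd, Psme, Psmf or Psmg followed by a number and at least 1 of its transcripts was protein coding. The families held 8 Psma, 11 Psmb, 6 Psmc, 14 Psmd, 4 Psme, 1 Psmf and 4 Psmg genes, with 226 of the 109463 transcripts. The rule itself uses names and transcript classes and no count, but it was set with earlier results of these data known.

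Both libraries came from 1 group of control mice at postnatal day 5 (n = 2 biological replicates), so no treatment or disease contrast exists in these data. The animals were of genotype Smn+/-; SMN2tg/0 on the FVB strain: every animal lacked 1 functional copy of the mouse Smn gene and carried a human SMN2 transgene, as heterozygous animals of the Taiwanese line, which models spinal muscular atrophy. Whole frozen brains were lysed, the polysome fractions of a sucrose gradient were pooled and treated with RNase I, and fragments of 25 to 35 nt were sequenced. Whole brain mixes all cell types, so fewer cells of a type and fewer footprints per cell cannot be told apart. The libraries held 1866831 footprints in replicate 1 and 5261878 in replicate 2.

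The proteasome degrades proteins tagged with ubiquitin. Its 20S core is a barrel of alpha subunits (Psma), which form the gated outer rings, and beta subunits (Psmb), which form the inner rings and include the proteolytic sites. The 19S particle caps the barrel with a ring of ATPases (Psmc) that unfold substrates and with non-ATPase subunits (Psmd) that bind and strip ubiquitin. Psme and Psmf genes encode other caps and modulators of the core, and Psmg genes encode chaperones that build it. In cells exposed to interferon-gamma, Psmb8, Psmb9 and Psmb10 replace the catalytic subunits Psmb5, Psmb6 and Psmb7 to form the immunoproteasome, which is known for making peptides for antigen presentation.

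Psmb5 and Psmb8 encode the constitutive and the inducible form of the same catalytic position, and their footprint levels were far apart (below). The 250 bases before their annotated starts are shown so that the promoters of this pair can be set side by side. Each is written 5′ to 3′ on its gene's strand. They are from RefSeq, build GRCm38.p6, at chr14:54617996-54618245 on the minus strand for Psmb5 and at chr17:34197945-34198194 on the plus strand for Psmb8. Capitals mark a match to TGACNNNGC, the antioxidant response element, in Psmb5, and a match to TTCNNNGAA, the gamma-activated site, in Psmb8.
Psmb5: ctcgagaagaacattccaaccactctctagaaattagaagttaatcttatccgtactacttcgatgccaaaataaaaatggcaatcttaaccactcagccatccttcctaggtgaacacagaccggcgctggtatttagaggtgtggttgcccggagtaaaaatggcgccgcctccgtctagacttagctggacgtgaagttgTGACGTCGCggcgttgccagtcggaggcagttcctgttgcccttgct
Psmb8: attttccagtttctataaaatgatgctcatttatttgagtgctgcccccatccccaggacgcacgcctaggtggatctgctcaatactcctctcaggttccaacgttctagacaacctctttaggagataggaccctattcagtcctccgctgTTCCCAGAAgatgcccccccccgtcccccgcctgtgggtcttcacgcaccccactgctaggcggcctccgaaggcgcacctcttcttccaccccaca
The match in Psmb5 began 47 bases before the start, and the match in Psmb8 began 97 bases before it. The promoter table, which covers 250 bases before to 50 bases after each start, held 43 promoters of 40 member genes. On either strand, TGACNNNGC occurred in 6 of 43 (14.0%), against 12.4% of all 32851 promoters. TTCNNNGAA occurred in 3 of 43 (6.98%), those of Psmb8, Psmd2 and Psmg1, against 8.30% of all promoters. GAAANNGAAA, the interferon-stimulated response element, occurred in 5 of 43 (11.6%), those of Psmb3, Psmd4, Psmd9, Psme1 and Psmg4, against 3.44% of all. None of the promoters listed for Psmb8, Psmb9 and Psmb10 held GAAANNGAAA in this window. The motifs do not contain one another, and a match is a description of letters, not a bound site.

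The 48 genes together held 12139 footprints in replicate 1 and 35216 in replicate 2. This was 0.650% of the footprints of replicate 1, with an exact 95% confidence interval by Clopper-Pearson from 0.639 to 0.662%, and 0.669% of those of replicate 2, with bounds of 0.662 and 0.676%. The mean was 0.660% ± 0.0134 (SD, n = 2). Intervals and floors here cover counting error only, since PCR copies are not independent molecules. Of the members, 46 had a mean count of at least 10. The exceptions were Psma8, a testis-specific alpha subunit with 1 and 0 footprints, and Psmb11, the thymus-specific beta subunit with 1 and 1. Levels below are footprint densities, that is, CPM (the count scaled to the library total) per kb of the longest annotated coding sequence, with the footprints of all annotated transcripts of a gene summed. Where protein-coding transcripts only, or the highest transcript alone, are named, counts were scaled to the total on the transcripts so counted. Such densities can be compared within their setting, not with the levels from all transcripts.

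With all transcripts summed, the 31 standard subunits of the 20S and 19S particles had footprint densities close to one another and above those of most genes. These are Psma1 to Psma7, Psmb1 to Psmb7, Psmc1 to Psmc6, and Psmd1 to Psmd4, Psmd6 to Psmd8 and Psmd11 to Psmd14. Their median density was 172 in replicate 1 and 166 in replicate 2, whereas the median of the 13317 coding genes averaging 10 or more footprints was 22.0 and 24.6. All 31 lay above that median in both replicates, and 30 of 31 lay within 2 times of their own median in each replicate. With protein-coding transcripts only, all 31 again lay above the coding gene median, and 27 and 28 lay within 2 times of their own. With all transcripts, the highest standard subunit exceeded the lowest, Psmd1, by 4.50 times in replicate 1 and 3.65 times in replicate 2. The closeness rested on this sum. With the highest transcript alone, all 31 stayed above the coding gene median, but 20 and 28 lay within 2 times of their own. The highest then exceeded the lowest by 16.1 and 9.61 times. The plot of density by member shows the standard subunits as a band near the top, with the inducible and tissue-restricted subunits below it.

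**Figure D1:**
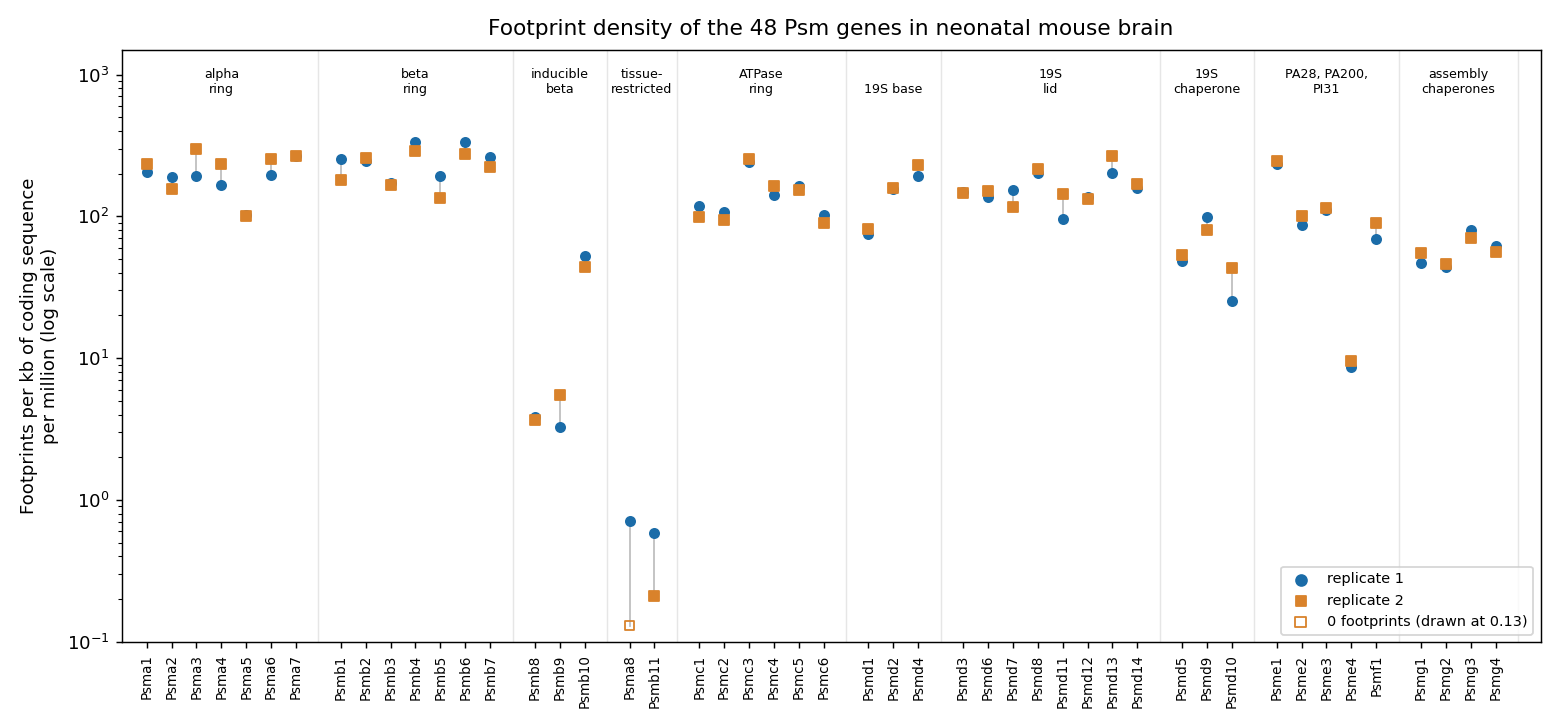
Footprint density (CPM per kb of coding sequence, log scale) of each of the 48 genes, grouped by role. Circles are replicate 1 and squares replicate 2, joined by a grey line. The standard 20S and 19S subunits lie between 74.5 and 336, Psmb8 and Psmb9 between 3.25 and 5.47, and Psma8 and Psmb11 below 1.

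The alpha ring had a median density of 191 in replicate 1 and 233 in replicate 2 (212 ± 30.0, SD, n = 2). Psma7 was high in both libraries, at 266 and 264. Psma3, whose protein contributes a gating tail to the pore, was read at 191 and 299, and Psma6 at 196 and 254. Psma1 stood at 206 and 233. The low end was held by Psma5 at 102 and 99.7 and Psma2 at 189 and 156, with Psma4 at 168 and 232. With all transcripts summed, Psma5 was below every other alpha subunit in both libraries. The order turned with protein-coding transcripts only: Psma2 was highest at 248 and 208, Psma3 stood at 82.3 and 135, Psma7 at 117 and 113, and Psma5 at 113 and 109.

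The beta ring had a median density of 252 in replicate 1 and 222 in replicate 2 (237 ± 20.9, SD, n = 2). Psmb4, a non-catalytic subunit, was at 336 and 288 (312 ± 33.9, SD, n = 2). Psmb6, which carries the caspase-like site, was as high in replicate 1, at 335, and stood at 275 in replicate 2, and Psmb7, which carries the trypsin-like site, was at 262 and 222. Psmb5, which carries the chymotrypsin-like site, was lower than both, at 192 and 134. This order was the same in both libraries but rested on the sum over transcripts. With protein-coding transcripts only, Psmb5 stood at 252 and 179, Psmb6 at 223 and 173 and Psmb7 at 226 and 188, so Psmb5 was no longer lowest in both libraries. The Psmb5 count is the same in both settings, and its density differs because the scaling total is smaller. Psmb2 was at 246 and 259, Psmb1 at 252 and 181, and Psmb3 at 172 and 166. The beta median was 1.32 times the alpha median in replicate 1 and 0.953 times it in replicate 2, so the order of the rings did not hold between the replicates.

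The counts of some beta subunits are uncertain, because short fragments can match near-identical copies. The pseudogene Psmb5-ps had 49 and 95 footprints, which is 17.2% and 16.9% of the Psmb5 count. Psmb6-ps2 had 34 and 83 footprints, or 7.57% and 7.99% of Psmb6. Smaller counts fell on Psmb6-ps (3 and 20) and Psmb7-ps2 (6 and 30). How fragments with several matches were assigned is not given in the sources used here.

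The inducible subunits Psmb8 and Psmb9 had few footprints beside their constitutive partners, while Psmb10 had more. Psmb8 had 6 footprints in replicate 1 and 16 in replicate 2, against 285 and 561 on Psmb5. Per coding length its density, 3.87 and 3.66, was 2.01% of that of Psmb5 in replicate 1 (95% exact interval 0.733 to 4.44%) and 2.73% in replicate 2 (1.55 to 4.47%), or 2.37% ± 0.505 (SD, n = 2). Psmb9 had 4 and 19 footprints, against 449 and 1039 on Psmb6. Its density, 3.25 and 5.47, was 0.968% of that of Psmb6 (0.263 to 2.50%) in replicate 1 and 1.99% (1.19 to 3.12%) in replicate 2, or 1.48% ± 0.720 (SD, n = 2). The intervals of Psmb8 and Psmb9 overlapped within each library, and an order between these pairs was not tested. With the highest transcript alone, the mean shares were 1.02% for Psmb8 and 1.13% for Psmb9.

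Psmb10 had 80 and 190 footprints, against 408 and 976 on Psmb7. Its density, 52.1 and 43.9, was 19.9% of that of Psmb7 (15.5 to 25.3%) in replicate 1 and 19.8% (16.8 to 23.1%) in replicate 2, or 19.8% ± 0.101 (SD, n = 2). The share of Psmb10 thus lay above the upper bounds of the Psmb8 and Psmb9 shares in both libraries. Counting only protein-coding transcripts raised it to 30.7%, because part of the Psmb7 count lies on other transcript classes and Psmb10 has 1 transcript. Psma8 stood against a floor of 2.13 and 0.757 in density, the level that a count of 0 allows.

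**Figure D2:**
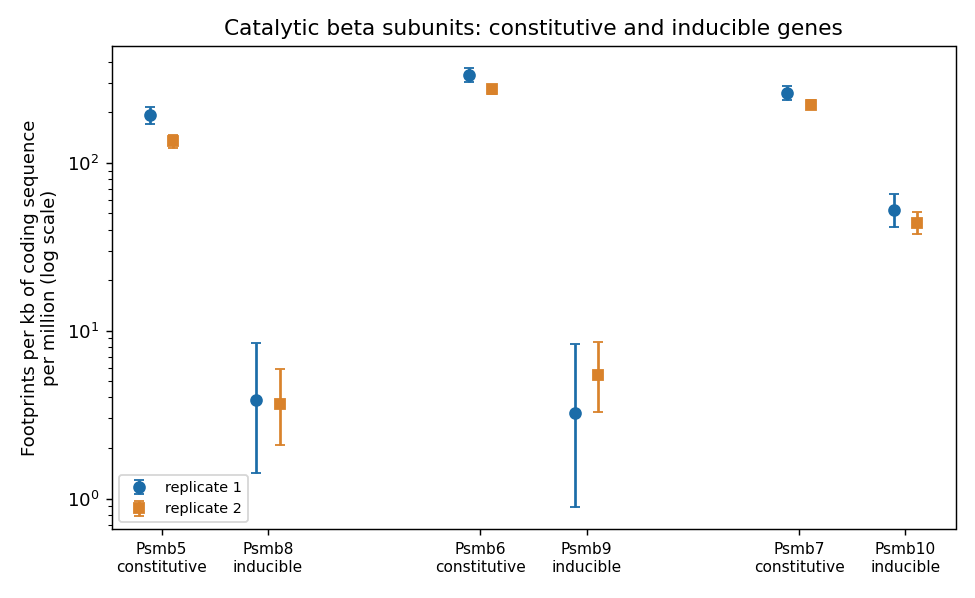
Footprint density (CPM per kb of coding sequence, log scale) of each constitutive catalytic beta subunit and its inducible counterpart. Circles are replicate 1, squares replicate 2, and bars are 95% exact Clopper-Pearson intervals of the count, for counting error only. Psmb8 and Psmb9 lie near 2% of their partners and Psmb10 near 20% of Psmb7.

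Other genes of antigen presentation were described from a list of 13, of which 12 had a mean count of at least 10. B2m, the light chain of class I molecules, had a density of 176 and 144, and the class I heavy chains H2-D1 and H2-K1 stood at 99.4 and 90.4 and at 61.3 and 58.2. The peptide transporter genes Tap1 and Tap2 were low, at 8.62 and 7.16 and at 6.10 and 3.96. Nlrc5, the class I transactivator, had 2 footprints in each library. The list's median density was 8.62 in replicate 1 and 12.5 in replicate 2, both below the median of coding genes.

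Markers of cell types that a brain sample can hold were measured in the same libraries. The 8 microglial markers were all detected and summed to 0.0279% of footprints in replicate 1 and 0.0280% in replicate 2. The 5 endothelial markers, all detected, summed to 0.0281% and 0.0248%. The 5 T and B cell markers summed to 4.29 and 8.93 CPM, with 4 at 0 in replicate 1 and 2 at 0 in replicate 2. The 6 neuronal markers summed to 0.508% and 0.399%, the 5 astrocyte markers to 0.170% and 0.172%, and the 5 oligodendrocyte markers to 0.0514% and 0.0780%. The part of any of these cells in the levels of Psmb8, Psmb9 and Psmb10 was not tested. Of 4 markers of thymic epithelium and testis, 3 were at 0 in each library, and the list summed to 0.536 and 0.950 CPM.

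The ATPase ring of the 19S particle had a median density of 130 in replicate 1 and 125 in replicate 2 (127 ± 3.16, SD, n = 2). Psmc3 stood above the other 5 ATPases in both libraries, at 241 and 254 (247 ± 9.08, SD, n = 2), and did so with protein-coding transcripts only (222 and 240), but not with the highest transcript alone (85.6 and 115). Psmc5 was at 163 and 152 and Psmc4 at 141 and 165. Psmc1, Psmc2 and Psmc6 formed the low end, at 118 and 98.1, 108 and 94.4, and 103 and 90.2. Counted on protein-coding transcripts alone, the low end was instead Psmc4 at 50.8 and 60.9 and Psmc5 at 107 and 101, below Psmc1 (155 and 131), Psmc2 (131 and 115) and Psmc6 (134 and 121). The ring's members enter the particle in equal copies, and their densities spanned 2.35 times in replicate 1 and 2.82 times in replicate 2.

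The 14 Psmd genes had a median of 143 and 144 (144 ± 1.08, SD, n = 2), but their roles differed widely in level. In the base, Psmd1 and Psmd2, the large scaffold subunits, stood at 74.5 and 81.7 and at 155 and 159. Psmd4, a ubiquitin receptor, was higher, at 193 and 231. The lid, a complex that includes the deubiquitinase Psmd14, had a median of 151 and 148 over 8 genes (150 ± 1.81, SD, n = 2). Psmd13 and Psmd8 were highest there, at 201 and 265 and at 202 and 216. Psmd11 and Psmd7 were read at 95.0 and 143 and at 154 and 116. Between these lay Psmd14 at 158 and 169, Psmd3 at 148 and 145, Psmd12 at 138 and 133 and Psmd6 at 137 and 151. The orders in lid and base depended on counting and length. With protein-coding transcripts only, Psmd8 stayed highest in the lid at 264 and 289, but Psmd13 stood at 139 and 171. With the highest transcript alone, Psmd7 was highest there at 288 and 237, and Psmd13 stood at 65.5 and 94.4. Psmd4 was then below Psmd2, at 74.6 and 86.8 against 132 and 134. Per transcript length it was also below Psmd2, at 104 and 124 against 141 and 144.

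Psmd5, Psmd9 and Psmd10 bear the family name but encode chaperones that help to assemble the base and leave before the particle is complete. Their median density was 48.8 in replicate 1 and 53.6 in replicate 2, so the lid median exceeded it by 3.09 and 2.77 times. Psmd9 was at 98.5 and 80.7, Psmd5 at 48.8 and 53.6, and Psmd10, also known as gankyrin, at 25.4 and 43.1. The 4 Psmg chaperones of the 20S core were at a similar level, with a median of 54.4 and 55.4 (54.9 ± 0.715, SD, n = 2). Psmg1 and Psmg2, which form a heterodimer, stood at 46.8 and 55.0 and at 43.8 and 46.1, and Psmg3 and Psmg4, which form another, at 79.8 and 70.0 and at 61.9 and 55.7. Of these 7 chaperones, 5 lay below every standard subunit in replicate 1 and all 7 did in replicate 2. With protein-coding transcripts only, 3 and 2 of the 7 did, since Psmd1 then stood at 43.2 and 49.2. With the highest transcript alone, 1 and 0 of the 7 did. Low density is not a property of all assembly factors, since Pomp, the maturation factor of the 20S core, stood at 376 and 393, above every Psm gene.

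Both 20S rings lay above the 19S lid and the ATPase ring in median density in each library. The alpha median was 1.47 and 1.87 times the ATPase median, and the beta median 1.94 and 1.78 times it. The alpha difference rested on how transcripts were counted. With protein-coding transcripts only, the alpha median was 128 and the ATPase median 125, and with the highest transcript alone they were 166 and 168. The beta median stayed above the ATPase and lid medians under each counting and length alternative. Coding length moved with these levels: its median was 744 nt for the 20S rings and 1257 nt for the standard 19S subunits. Across the 31 standard subunits, density and coding length had a Spearman rho of -0.57 and -0.52, and across the 13317 coding genes of -0.45 and -0.45. These correlations run across genes of the same libraries and carry no test. Density is itself divided by coding length, so the measures are not independent and a negative rho can arise from the division alone.

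The caps other than 19S spanned the widest range. Psme1 and Psme2, which together form the interferon-inducible PA28 cap, differed: Psme1 was at 235 and 247, as high as the 20S subunits, and Psme2 at 86.3 and 101. The protein-coding copy Psme2b had 10 and 59 footprints, or 8.62% and 15.4% of the Psme2 count, so the Psme2 level is uncertain. Psme3, which encodes the nuclear PA28-gamma, stood at 110 and 114. Psme4, which encodes the large PA200 cap, was lowest at 8.62 and 9.52 on a coding sequence of 5532 nt. Psmf1, which encodes the inhibitor PI31, was at 68.9 and 90.1. The Psme1 level was 27.3 times that of Psme4 in replicate 1 and 25.9 times in replicate 2. With the highest transcript alone, Psme1 fell to 58.7 and 62.6, below Psme3 at 92.9 and 94.4.

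The spread between the libraries was examined gene by gene, because 2 replicates of 1 group allow no other comparison. A two-sided exact binomial test set each gene's replicate counts against the ratio of library sizes scaled by TMM (trimmed mean of M values), with Benjamini-Hochberg adjustment over 16427 genes. It compares these libraries and not conditions. Of the 46 members tested, 14 had an adjusted p under 0.05, 4 higher and 10 lower in replicate 2, and 19 had an unadjusted p under 0.05. Over all tested genes 17.4% were called, 5.95% higher and 11.5% lower, and 4547 of 16427 had an unadjusted p under 0.05. Members are deeper than most genes, with a median mean count of 534 against 96, and depth raises the chance of a call. Among genes that averaged 50 or more footprints, 17 of 44 members were called, and 26.8% of all genes. The median log2 ratio was -0.07 for the members and 0.01 for all tested genes.

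The 4 higher genes were Psma3, Psmd11, Psma4 and Psmd13. Psma3 had 274 and 1207 footprints (log2 ratio 0.52, adjusted p = 9.03e-07 by the exact binomial test), Psmd11 had 225 and 956 (0.46, adjusted p = 0.000139) and Psma4 had 246 and 960 (0.34, adjusted p = 0.00677). The lowest ratios were those of Psmb5, with 285 and 561 footprints (log2 ratio -0.64, adjusted p = 7.96e-08 by the exact binomial test), Psmb1, with 340 and 690 (-0.60, adjusted p = 3.81e-08), and Psmd7, with 278 and 591 (-0.53, adjusted p = 1.73e-05). The other 7 lower genes were Psmb4, Psmb6, Psmb7, Psma2, Psmc1, Psmc2 and Psmc6, with log2 ratios between -0.41 and -0.31. By role, 5 of 7 beta subunits were called, all lower, along with 3 of 6 ATPases, all lower. Of the alpha subunits 2 were called higher and 1 lower, and of the lid 2 higher and 1 lower. None of the non-ATPase genes of the 19S base (Psmd1, Psmd2 and Psmd4), the chaperones, the other caps or the inducible subunits was called with this scaling. Of the 12 antigen presentation genes tested, 0 were called by the exact binomial test and 4 had an unadjusted p under 0.05, against 0 and 1 with library totals. Over all 16427 tested genes, 4547 had an unadjusted p under 0.05 by this test, and 4873 with library totals. Over the 46 genes, log2 CPM of the replicates had Pearson's r of 0.98 and Spearman's rho of 0.92, given as a description.

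With library totals in place of TMM, which moves every log2 ratio up by 0.13, the count was again 14 but with 7 higher and 7 lower. Psmd4, Psma6 and Psmd10 joined the higher genes, and Psma2, Psmc2 and Psmc6 were no longer called. All tested genes then gave 19% called, 11.5% higher and 7.47% lower, and their median log2 ratio was 0.13 against 0.06 for the members. Counting only the highest transcript of each gene left 8 of 44 members called, all lower, where 9.41% of 15353 genes were called. This ended the calls of all 4 higher genes and of the lower genes Psmc2 and Psmc6.

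The number of annotated transcripts moved with the direction of these ratios. Of the 8 tested members with 1 annotated transcript, 6 were called, all lower in replicate 2: Psma2, Psmb1, Psmb5, Psmc1, Psmc6 and Psmd7. Their median log2 ratio was -0.40. Of the 38 members with several transcripts, 8 were called, 4 in each direction, and their median was -0.04. The same held for coding genes at large: of 3412 with 1 transcript, 26.4% were called, 25.6% lower, with a median of -0.28, whereas of 9905 with several transcripts 17.6% were called, with a median of 0.07. Of the neuronal markers, 4 of 6 were called, all lower in replicate 2, and of the oligodendrocyte markers 3 of 5 were called higher and 1 lower. Of the microglial markers, 3 of 8 were called, 1 higher and 2 lower. Among endothelial markers 1 of 5 was called, and among astrocyte markers 1 of 5, each lower. Over all tested genes, 17.4% were called. The part of annotation, cell makeup or processing in the ratios of the members was not tested.

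**Figure D3:**
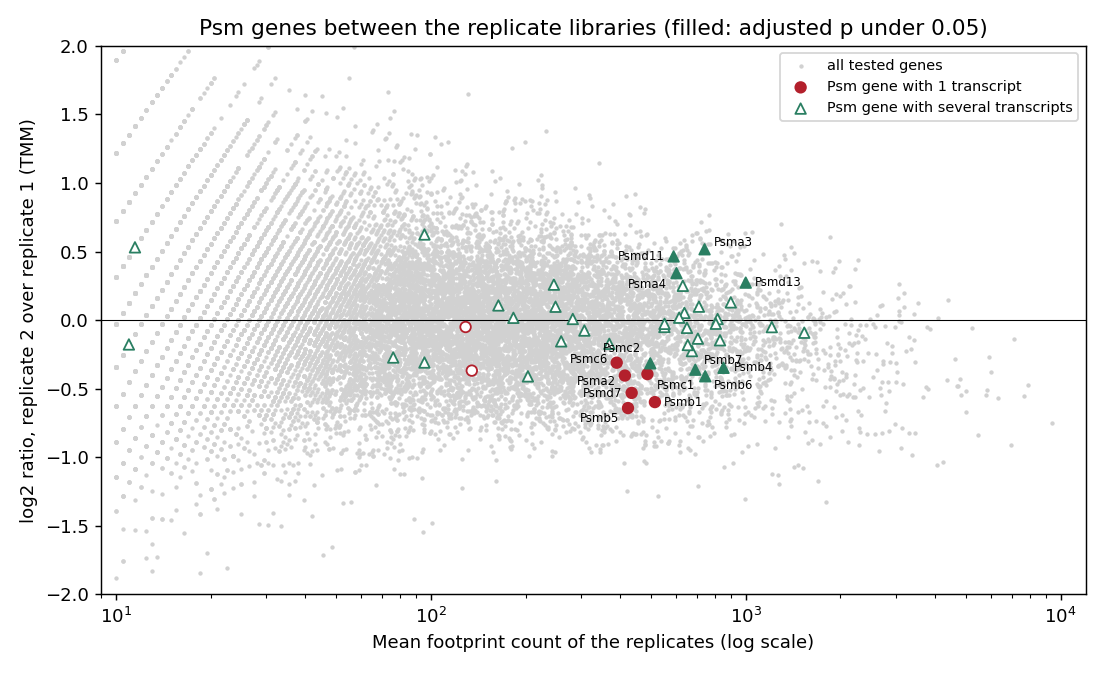
Log2 ratio of replicate 2 over replicate 1 (TMM scaled) against the mean footprint count (log scale) for the tested genes in grey, with 48 genes beyond 2 on the log2 axis not drawn. Red circles are Psm genes with 1 annotated transcript and green triangles those with several, filled where the adjusted p is under 0.05. The 6 called genes with 1 transcript all lie below 0.

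Member footprints fell on non-coding transcript classes more than those of genes at large. Protein-coding transcripts held 61.8% ± 2.37 (SD, n = 2) of member footprints and 75.5% ± 1.09 of all footprints. Retained-intron transcripts held 18.8% ± 1.02 against 9.36%, nonsense-mediated decay transcripts 9.56% ± 0.754 against 3.97%, and processed transcripts 9.81% ± 0.596 against 5.59%. Annotation moves with this: 30.5% of the members' transcripts are annotated as retained intron, against 14.3% of all. These transcripts contain exons of the coding ones, and counts on them do not show that they were translated. Whole-gene sums were therefore used for the levels above.

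The share on protein-coding transcripts differed widely between members. Psmc4 had the lowest, 27.5% and 27.6%, followed by Psma7 at 33.4% and 32.0% and Psma3 at 32.8% and 33.7%. Psmd8, Psmd12, Psmd10 and Psmg4 have several transcripts, all of the counted ones coding, and stood at 100%. For Psmc5 the coding transcript and a decay-annotated one held 186 footprints each in replicate 1, and 487 and 491 in replicate 2. An even division of this kind is a property of the counts of overlapping transcripts, and the handling of shared fragments is not given in the sources used here. Of 23008 pairs of transcripts from the same gene with a summed count of at least 100, 12 had identical counts in both replicates.

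**Figure D4:**
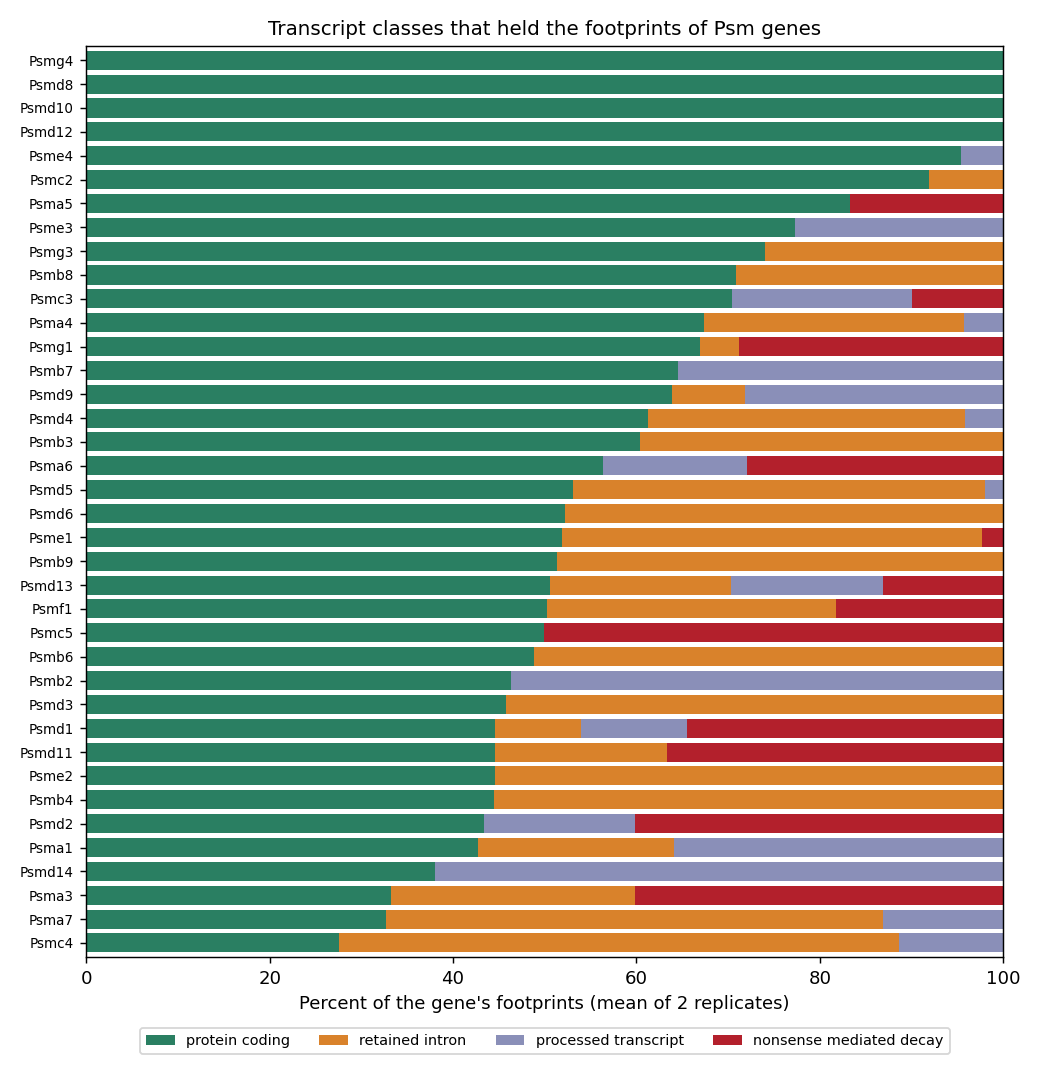
Percent of each gene's footprints (mean of 2 replicates) on transcripts of each annotated class, for the 38 tested members with several transcripts. Bars are stacked to 100%, and genes are ordered by their protein-coding share, from 100% in Psmd8 to near 27.5% in Psmc4.

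Genes that work with the proteasome outside the Psm families were described from a list, of which 25 were found, all with a mean count of at least 10. Paaf1, also on the list, was not found under that symbol. Of these, 6 were called between the replicates, where 17.4% of all tested genes were: 2 higher, Uchl5 (log2 ratio 0.52) and Adrm1 (0.38), and 4 lower, Ubqln2 (-0.68), Shfm1 (-0.68), Akirin2 (-0.43) and Vcp (-0.34). Their median log2 ratio was -0.01, and library totals gave 10 called, 7 higher and 3 lower, where 19% of all tested genes were called. Shfm1, an older symbol of Sem1, encodes the smallest lid subunit and had a density of 334 and 228, above every Psmd gene in replicate 1. Adrm1 and Uchl5 encode a ubiquitin receptor of the 19S base and the deubiquitinase it binds, and stood at 88.0 and 125 and at 48.2 and 75.8. Usp14, the other deubiquitinase of the base, was at 140 and 157. Vcp, the segregase that hands substrates to the proteasome, was at 163 and 141, and Zfand5, a proteasome activator, at 283 and 345. Of the transcription factors that control proteasome genes, Nfe2l1 was at 89.9 and 109 and Nfe2l2 at 6.87 and 8.37. In both libraries Nfe2l1 was thus more than 10 times above Nfe2l2 in footprint density.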

How the data were processed

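Ribosome footprints of 2 control brains were analysed. The authors deposited whole-number counts per transcript, without normalization, with annotated lengths, per the file headers. The submitters' processing notes name Trimmomatic 0.36, Bowtie2 2.2.6, SAMtools and build GRCm38.p4. Treatment of strand, duplicates and shared fragments is not given in the sources used here. Columns were matched to samples by name.

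Counts were summed over each gene's transcripts. Density used library totals and the longest coding sequence. With protein-coding transcripts only, the totals were 1424302 and 3933402, and with the highest transcript alone 999026 and 2576187. TMM factors (edgeR 4.0.16, genes averaging 10 or more counts) were 0.957 and 1.04. The exact binomial test (scipy 1.17.1, checked on simulated data) covers counting error only. Log2 ratios used a prior of 0.5 CPM. Floors are 3 counts.

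Full values are given for the 3 highest and 3 lowest members of each ring and the Psmd genes, the 3 most changed called members each way, every Psme, Psmf and Psmg gene, and the inducible and tissue-restricted subunits. Members, gene lists and tests were chosen with earlier results of these data known, and the division of Psmd genes by role after seeing the data. RefSeq GRCm38.p6 gave promoters and neighbours. Alternatives were other transcript counting, lengths, scaling, filters (DESeq2 1.42.0 size factors among them), depth and single replicates.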

Additional observations from a re-analysis of the deposited data

How the results depend on the processing

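With 2 libraries of 1 group, spread between animals is poorly known, and depth limits Psmb8, Psmb9, Psma8 and Psmb11. No paired analysis was possible because the labels give 1 group. With protein-coding transcripts only, the members held 0.540% of the footprints on such transcripts, a different total from that of the 0.660% with all transcripts. Median densities, scaled to that coding total, were 128 for the alpha ring, 198 for the beta ring, 89.8 for Psmd and 58.0 for the other caps. They were 66.4 for the Psmg chaperones, 90.1 for the non-ATPase genes of the 19S base, 123 for the lid and 45.8 for the 19S chaperones. Psmb8 was then at 1.69% of Psmb5 and Psmb10 at 30.7% of Psmb7. With the highest transcript alone, the members held 0.599% of the footprints on the highest transcripts of all genes. The same medians, scaled to that total, were 166, 291, 89.3, 43.7, 60.1, 80.7, 113 and 45.3, with 168 for the ATPase ring. Psmb8 was then at 1.02% and Psmb10 at 30.7%, 8 members were called (9.41% of all genes) and 3 of the proteasome partner genes. Dividing by transcript length gave 131, 168, 90.5, 32.1, 36.0, 114, 96.9 and 18.7 in that order, 98.2 for the ATPase ring, and 1.13%, 0.455% and 17.8% for Psmb8, Psmb9 and Psmb10. The cause was not tested. Among members with several transcripts, a choice made after seeing the data, medians were 261 for the beta ring, 155 for the ATPase ring, 142 for Psmd and 58.8 for Psmg. Thinning replicate 2 to the depth of replicate 1 gave 53.7 for Psmg and 19.7% for Psmb10. Library totals gave 10 partner genes in place of 6. Leaving out a replicate moved the alpha median between 191 and 233 and the beta median between 222 and 252. The alpha median, above the ATPase median with all transcripts, was below it with the highest transcript alone. No called member changed sign under another scaling, filter or transcript count. Of the members tested, 8 changed sign with library totals, 5 with protein-coding transcripts only and 4 with the highest transcript alone, none of them called with all transcripts and TMM. Over the scaling, filter and transcript alternatives, 8 to 17 members were called.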

Other observations

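Several members lie beside one another or beside antigen presentation genes in the RefSeq gene order, and neighbours differed in footprint density. On chromosome 17, Psmb9 and Psmb8 alternate with Tap1 and Tap2, which encode the partners of the peptide transporter. All 4 of these genes were low: Psmb9 at 3.25 and 5.47, Tap1 at 8.62 and 7.16, Psmb8 at 3.87 and 3.66, and Tap2 at 6.10 and 3.96. Psmb10, on chromosome 8, lies between Ctrl and Lcat and stood at 52.1 and 43.9. On chromosome 14, Psmb5 is next to the thymic Psmb11, at 192 and 134 against 0.589 and 0.209, the latter from 1 footprint in each library. Psme1 and Psme2 lie on either side of Emc9 on the same chromosome and stood at 235 and 247 and at 86.3 and 101. These are values of 1 group of libraries, and no relation between position and level was tested.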
